A study of Mus musculus with 6 samples.

Results

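Liver RNA of Clock mutant mice was set against liver RNA of wild-type mice at circadian times CT02 and CT14, and the genes that differed the same way at both times were read. The comparison rests on 4 of the 6 one-colour Affymetrix mouse arrays of the series, chosen by their titles: Clock mutant at CT02, Clock mutant at CT14, wild type at CT02 and wild type at CT14, with 1 array per group. All mice were males of 8 to 10 weeks. The wild-type mice were on a C57BL/6 background, while no source used here gives the Clock allele, the mutant strain or any pooling of animals. A difference of genotype and a difference of strain therefore cannot be told apart. The other 2 arrays, from Cry-deficient mice at the same times, entered the scaling and are given beside single genes. In circadian time, with hour 0 at subjective dawn, CT02 (2 h) is a daytime point and CT14 (14 h) a nighttime point for animals without a light cue.

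CLOCK is a transcription factor that pairs with BMAL1 (gene Arntl), binds E-box sequences and drives the Per and Cry genes, whose products feed back to repress it. In liver this loop sets the daily course of genes of drug, lipid, sterol and bile acid metabolism.

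Of 4844 genes bright enough to be read, 146 (3.01%) were at least 2-fold apart in the same direction at both times, 56 higher and 90 lower in the Clock mutant. Those 56 are 1.16% and those 90 are 1.86% of the genes read. A further 19 genes (0.392%) were at least 2-fold apart at both times but in opposite ways, 11 of them (0.227%) higher at CT02 and lower at CT14 and 8 (0.165%) the other way round. The CT02 pair and the CT14 pair share no array. Cyp2b10, Cyp2c39, Lpl, Asgr2, Apcs and Aqp8 led the higher genes, and Dio1, Nnmt, Dynll2, Glns-ps1 and Tspan4 led the lower ones. At a single time the share of genes past 2-fold was larger: 11.8% at CT02, made of 206 higher (4.25%) and 364 lower genes (7.51%), and 9.76% at CT14, made of 200 higher (4.13%) and 273 lower genes (5.64%).

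**Figure D1:**
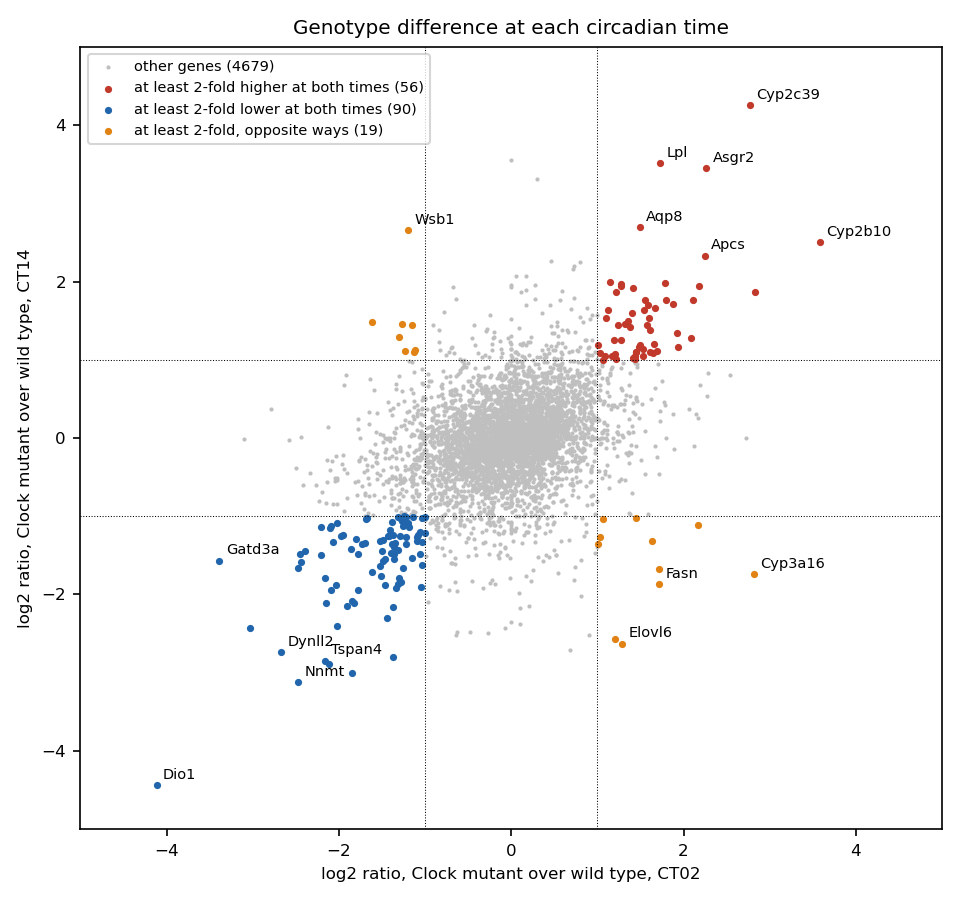
Log2 ratio of Clock mutant over wild type at CT02 (horizontal axis) and at CT14 (vertical axis), 1 point per gene for 4844 genes, with dotted lines at 2-fold. The 56 red and 90 blue points past 2-fold the same way outnumber the 19 orange points past 2-fold in opposite ways.

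Levels are given in scaled units, the deposited intensity after each array was brought to a common scale. Values at or under 606 scaled units, the median of all probe sets, were set to that floor before ratios were taken, so a fold against such a value is a lower bound, marked by the words "at least". Pairs with both values there get no fold. Of the 146 genes, 71 were above the floor on all 4 arrays (30 higher and 41 lower), and the others (26 higher and 49 lower) carry a bound at 1 time or at both.

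With 1 array per group, no difference at a single time has a replicate check. An additive limma fit of genotype with time as a block was the test used. It sets the mean of the CT02 and CT14 differences against their disagreement, with 1 residual degree of freedom per gene. At an adjusted p under 0.05 (Benjamini-Hochberg over 4844 genes) it called 76 genes (1.57%), 27 higher (0.557%) and 49 lower (1.01%), and all 76 were among the 146. That count is not firm, because it was 0 after quantile normalization, after lowess correction, on the values as deposited, with a higher floor and with no filter on dim genes. Leaving out the block for time gave 1, a fit to all 6 arrays gave 2, and averaging the probe sets of a gene gave 267. An exact permutation of genotype within the 2 pairs cannot give a two-sided p below 0.5. Differences are therefore described as higher or lower, with the fit's mean log2 ratio ± SE and adjusted p for a few genes, and that SE comes mostly from the spread shared by all genes.

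The arrays themselves were not alike. The Clock mutant CT02 array was the dimmest, with a mean deposited intensity of 1637 against 2325 in wild type, while the CT14 arrays had 2182 in the Clock mutant and 2382 in wild type. The ratio of 3' to 5' control probes of Actb, which is high where RNA is degraded or incompletely copied, was 2.68 and 1.15 in Clock mutant liver at CT02 and CT14, against 0.84 and 0.93 in wild type, and that of Gapdh was 0.56 and 0.59 against 0.70 and 0.72. On the Cry-deficient arrays the Actb ratio was 1.70 at CT02 and 0.86 at CT14, and that of Gapdh was 2.37 and 0.70. The Cry-deficient CT02 array thus had the highest Gapdh ratio of the series. The part of these differences in the results was not tested. On the values as deposited the median of all genes lay at -0.52 (log2) at CT02 and -0.09 at CT14, and 190 genes were past 2-fold the same way, 25 higher and 165 lower, so the share of lower genes was 86.8%, against 61.6% after scaling. The tissue was liver by its markers: all 10 hepatocyte markers on the array were kept, with a summed level of 127839 and 81384 scaled units in Clock mutant liver at CT02 and CT14, against 120967 and 113263 in wild type. The only 1 of these 10 past 2-fold the same way was Ass1, the argininosuccinate synthase of the urea cycle, under the floor in the Clock mutant with 220 and -216, against 1505 and 2214 in wild type.

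The gene named in the mutant label was read first. Clock stood at 1640 and 2069 scaled units in Clock mutant liver at CT02 and CT14, against 2430 and 1552 in wild type. The Clock mutant lay below wild type at CT02 and above it at CT14, so the probe set showed no difference kept at both times, and a level of RNA does not report on a mutant allele that is still transcribed. Of the 11 core clock genes kept, 0 were 2-fold apart the same way at both times, beside 3.01% of all genes. The 3 that lay below wild type at both times by any margin were Nr1d1, Nr1d2 and Per3. Nr1d1, the Rev-erb alpha repressor of Arntl, read 1877 and 1998 in the Clock mutant, against 4101 and 3007 in wild type, a log2 ratio of -1.13 at CT02 and -0.59 at CT14. Nr1d2, its paralog, read 22 and 1022 against 916 and 1366, and Per3, a period gene whose loss has mild effects on rhythm in mice, read 3769 and 3473 against 4416 and 4340. The core clock list had a median log2 ratio of -0.23 at CT02 and -0.32 at CT14, and the clock output list, of 9 genes such as Tef and Usp2, had one of 0.00 and -0.81. Usp2, a clock-controlled deubiquitinase, was under the floor in the Clock mutant at both times, against 733 and 3404 in wild type, and so passed 2-fold at CT14 only. Other core clock genes were past 2-fold at 1 time only. Per2, a period gene and direct CLOCK target, read 778 in the Clock mutant at CT14 against 4058 in wild type, 5.22-fold lower, and 651 against 251 at CT02. Cry1, a cryptochrome gene driven by the same factor, read 366 against 2723 at CT14, at least 4.49-fold lower, and 1963 against 1833 at CT02. Rora, a receptor that activates Arntl, was past 2-fold at CT02 alone, with 891 in the Clock mutant against 3058 in wild type, while it read 1348 and 1247 at CT14.

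Agreement between the times was also read over all genes past 2-fold at a given time. These sets include the 56 higher and 90 lower genes past 2-fold at both times, which agree by definition. Those genes enlarge the shares and medians given here. Of the 206 genes at least 2-fold higher at CT02, 151 (73.3%) were also above wild type at CT14, against 48.3% of all genes, and their median log2 ratio at CT14 was 0.45. Of the 364 at least 2-fold lower at CT02, 277 (76.1%) were below wild type at CT14, against 50.5% of all genes, with a median of -0.50. Read the other way, 74.5% of the genes 2-fold higher at CT14 and 72.9% of those 2-fold lower lay on the same side at CT02, against 49.3% and 49.4% of all genes. Over the 4844 genes, read from arrays scaled together and not independent of one another, Pearson's r between the CT02 and CT14 log2 ratios was 0.38 and Spearman's rho 0.34. The SD of the log2 ratios was 0.66 at CT02 and 0.61 at CT14, and that of the difference between the times was 0.71. Split by level into 4 bins of 1211 genes, the correlation was 0.37, 0.38, 0.39 and 0.40 from the dimmest to the brightest bin. The share past 2-fold the same way was 1.98% higher and 2.23% lower in the dimmest bin and 0.413% and 0.991% in the brightest.

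The drug-metabolising cytochromes Cyp2b10 and Cyp2c39 had the largest fold among the 56 higher genes at CT02 and at CT14, in that order. Cyp2b10, the classic target of the xenobiotic receptor CAR, read 8511 and 4743 scaled units in Clock mutant liver at CT02 and CT14, against 708 and 838 in wild type. Both wild-type arrays were just above the floor and both mutant arrays far above it, a fold of 12.03 at CT02 and 5.66 at CT14 (mean log2 ratio 3.04 ± 0.33, SE, adjusted p = 0.0111 in the limma fit). The Cry-deficient arrays read 5994 and 6887, so wild type was the low genotype for this gene. Cyp2c39, a cytochrome of arachidonic acid and retinoid oxidation, read 6696 and 11563 in the Clock mutant, against 981 and 394 in wild type, which is 6.82-fold and at least 19.1-fold (adjusted p = 0.0111). Its Cry-deficient values were 1891 and 1852. Cyp2b9, a neighbour of Cyp2b10 on the chromosome and close to it in sequence, was under the floor in wild type at both times. It read 1688 and 1362 in the Clock mutant, higher by 2.79-fold or more and 2.25-fold or more. Its Cry-deficient values, 3360 and 1042, were above the floor as well, so wild type was again the low genotype. Members of the Cyp2b and Cyp2c subfamilies are similar enough that probes may not separate them.

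Other genes of the CAR and PXR list did not share this pattern. Of 21 kept, 3 were 2-fold higher at both times (Cyp2b10, Cyp2b9 and Cyp2c39) and 1 was 2-fold lower, beside 1.16% and 1.86% of all genes, and the list's median log2 ratio was 0.28 at CT02 and -0.02 at CT14, while unscaled deposited values gave -0.27 at CT02. The lower one, Abcc2, which pumps conjugated bilirubin and drugs into bile, read 1719 and 1497 in the Clock mutant, against 4822 and 4442 in wild type, 2.80-fold and 2.97-fold lower. Gstm2, a glutathione transferase, came close on the higher side, at 7446 and 7659 against 3750 and 2576. Cyp2c29, another cytochrome of this group, came close on the lower side, at 3428 and 2519 against 6564 and 6133. Cyp3a11, the main PXR-driven cytochrome, read 25335 and 15293 against 22796 and 21665 and so differed little.

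Lipid genes stood on both sides. Lpl, the lipase that releases fatty acids from circulating triglyceride and that is low in adult mouse liver, read 9132 and 7845 in Clock mutant liver at CT02 and CT14, against 2761 and 685 in wild type, 3.31-fold and 11.4-fold higher. The mutant levels lay close together while wild type was lower at CT14, and the Cry-deficient arrays were under the floor with 425 and 253. Its second probe set read 2820 and 4640 in the Clock mutant and was under the floor in wild type at both times. Fabp5, a fatty acid binding protein, read 6860 and 7690 against 2378 and 3729, and Me1, which makes NADPH for fatty acid synthesis, read 7544 and 5641 against 2839 and 2779. Hmgcs1, an early enzyme of cholesterol synthesis, read 14349 and 9399 in the Clock mutant, against 4908 and 2766 in wild type, 2.92-fold and 3.40-fold higher. Idi1, which isomerises isopentenyl diphosphate in the same pathway, read 5052 and 4452 against 1618 and 2097. The Cry-deficient arrays read 2721 and 14318 for Hmgcs1 and 3902 and 19364 for Idi1. A level above wild type at CT14 was therefore not limited to the Clock mutant for these genes.

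Apoe, which carries cholesterol-rich remnants to their receptors, was lower: 884 and 234 in the Clock mutant, against 3325 and 2696 in wild type, 3.76-fold and at least 4.45-fold. Of the 22 genes kept of lipoprotein handling and fatty acid uptake, 2 were at least 2-fold higher (Lpl and Fabp5) and 1 at least 2-fold lower (Apoe) at both times, beside 1.16% and 1.86% of all genes. Of the 16 cholesterol synthesis genes 2 were at least 2-fold higher at both times (Hmgcs1 and Idi1) and 0 at least 2-fold lower, beside the same shares, while 8 were higher and 1 lower by any margin, with a median log2 ratio of 1.0 at CT02 and 0.26 at CT14. Of the 14 lipogenic genes 1 was at least 2-fold higher (Me1) and 0 at least 2-fold lower at both times, with medians of 0.65 and -0.28. The 21 PPARA and fatty acid oxidation genes held 0 past 2-fold at both times in either direction, with medians of -0.04 and -0.05, and the 11 bile acid genes also held 0, with medians of 0.12 and 0.05. The CT02 medians depended on the scaling. Their lowest values among the scalings tried were 0.44 for cholesterol synthesis, 0.09 for lipogenesis, -0.60 for PPARA and fatty acid oxidation and -0.43 for bile acid genes.

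Genes of secreted and surface proteins included some of the brightest differences. Apcs, the serum amyloid P pentraxin, read 28399 and 22300 in Clock mutant liver at CT02 and CT14, against 5981 and 4428 in wild type. It was 4.75-fold and 5.04-fold higher (mean log2 ratio 2.29 ± 0.27, SE, adjusted p = 0.0146), and the Cry-deficient arrays, at 6619 and 5652, lay near wild type. Orm2, an orosomucoid of the acute phase, went the other way, with 1085 and 954 in the Clock mutant against 3098 and 3242 in wild type, 2.86-fold and 3.40-fold lower. Of the 23 acute-phase genes kept, these were the only ones past 2-fold the same way at both times, 1 in each direction. The shares of all genes were 1.16% higher and 1.86% lower. Serpina3n, a serine protease inhibitor, came close on the higher side, at 25939 and 19938 against 13555 and 10874. Asgr2, a subunit of the asialoglycoprotein receptor that clears desialylated serum proteins, read 2909 and 6700 in the Clock mutant, against 394 and 613 in wild type, at least 4.80-fold and 10.9-fold higher. Ccl9, a chemokine of the CC family, was bright on every array, with 22036 and 17347 against 8349 and 5746.

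Cish, a cytokine signalling inhibitor induced through STAT5, read 1874 and 4241 in the Clock mutant, against 805 and 1165 in wild type, 2.33-fold and 3.64-fold higher. Its relative Socs2, which restrains growth hormone signalling, read 1325 and 8473 against 764 and 1785 and so passed 2-fold at CT14 only. Of the 12 chemokine and cytokine signalling genes kept, 2 were at least 2-fold higher at both times (Ccl9 and Cish) and 0 at least 2-fold lower, beside 1.16% and 1.86% of all genes, while 6 were higher and 2 lower by any margin, with medians of 0.18 and 0.51. The 26 complement and coagulation genes held 0 in either direction, with a median of 0.25 at CT02, which was -0.31 on the values as deposited, and of -0.18 at CT14.

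Aqp8, a water channel of the canalicular membrane, read 10958 and 6276 scaled units in Clock mutant liver at CT02 and CT14, against 3899 and 970 in wild type, 2.81-fold and 6.47-fold higher. In both genotypes the CT02 array was the brighter, and both mutant arrays lay above both wild-type arrays. Slc26a1, an anion exchanger that moves sulfate and oxalate, was lower, at 757 and 507 in the Clock mutant against 2693 and 2625 in wild type. The Cry-deficient arrays were low as well, both under the floor at -262 and 246. Aqp8 and Slc26a1 were the 2 genes past 2-fold the same way among the 11 kept of the list of water channels and solute carriers. The share of all genes was 3.01%.

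Single enzymes outside these pathways were higher. Uros, the uroporphyrinogen III synthase of heme synthesis, read 3419 and 2775 in the Clock mutant, against 980 and 818 in wild type, 3.49-fold and 3.39-fold. The Cry-deficient arrays, at 1817 and 2350, lay between the Clock mutant and wild type. Uros was the only 1 of 9 kept heme genes past 2-fold at both times, beside 3.01% of all genes. Hao2, a peroxisomal hydroxy acid oxidase higher in female than male rodent liver, was under the floor in wild type and on both Cry-deficient arrays and read 2233 and 1983 in the Clock mutant, at least 3.68-fold and at least 3.27-fold. Fhit, a diadenosine triphosphate hydrolase, read 4236 and 3288 against 1328 and 1035, 3.19-fold and 3.18-fold. The mutant arrays were above both wild-type arrays for each of these enzymes.

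Of the 6 genes kept of the female-biased list, 4 were at least 2-fold higher at both times (Cyp2b9, Cyp2c39, Hao2 and Lpl) and 0 lower, beside 1.16% of all genes, with medians of 1.80 at CT02 and 1.44 at CT14. The list was drawn up with Lpl and Cyp2c39 known to be high in these data, so this count carries no weight of its own, and with no filter on dim genes its medians were 0.38 and 0.00 over 13 genes on the array. The 13 male-biased genes held 0 in either direction, with medians of -0.15 and -0.17.

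The other higher genes of the ranking were dimmer or have no known part in liver function. Clps, the pancreatic colipase, read 2582 and 2414 in the Clock mutant against 995 and 901 in wild type. Of the 6 pancreatic acinar markers kept, Clps was the only 1 past 2-fold at both times, 3 lay above and 2 below wild type at both times by any margin, and their summed level was 19063 and 17367 in the Clock mutant, against 15303 and 12310 in wild type. Cela1, an elastase, read 10288 and 7411 against 6073 and 4153, while Ctrb1, a chymotrypsinogen, read 888 and 2016 against 2434 and 2949. The part of pancreatic RNA in the Clps difference was not tested. Gas2, a microtubule and actin linker cleaved in apoptosis, read 7641 and 8038 against 3170 and 2048. Pick1, a PDZ and BAR domain protein of membrane trafficking, read 5294 and 3904 against 1250 and 1604, though its second probe set, at 1257 and 1131 against 1472 and 288, was lower at CT02. Capn10, a calpain protease, read 2386 and 2746 against 959 and 998. U90926 read 3491 and 2658 against 810 and 783, and Ocel1 read 4214 and 4087 against 1445 and 1314. Erdr1, on a probe set that its name marks as a sequence family, read 20808 and 18291 against 8105 and 6460, while its second probe set was under the floor in the Clock mutant.

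Among higher genes with a bound, Htr5a, a serotonin receptor, read 4313 and 2495 against 342 and 682, and Gucy2e, a guanylate cyclase of the retina, read 2843 and 2343 against 629 and 544. Rad51b, a recombination protein, read 2086 and 2392 against 252 and 179, but 4260 on the Cry-deficient CT02 array. Meg3, an imprinted noncoding RNA, read 1834 and 1760 against 231 and 87. Psmg3, a proteasome assembly chaperone, read 2456 and 1970 against 816 and 87. Its second probe set was not higher: it was under the floor on both mutant arrays and read 888 in wild type at CT14. Srcin1, an inhibitor of SRC kinase, read 1811 and 1651 against 90 and 450, and Grwd1, a ribosome biogenesis factor, read 1620 and 2290 against 452 and 338. These genes had 1 or both wild-type values at the floor, so their folds are bounds.

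**Figure D2:**
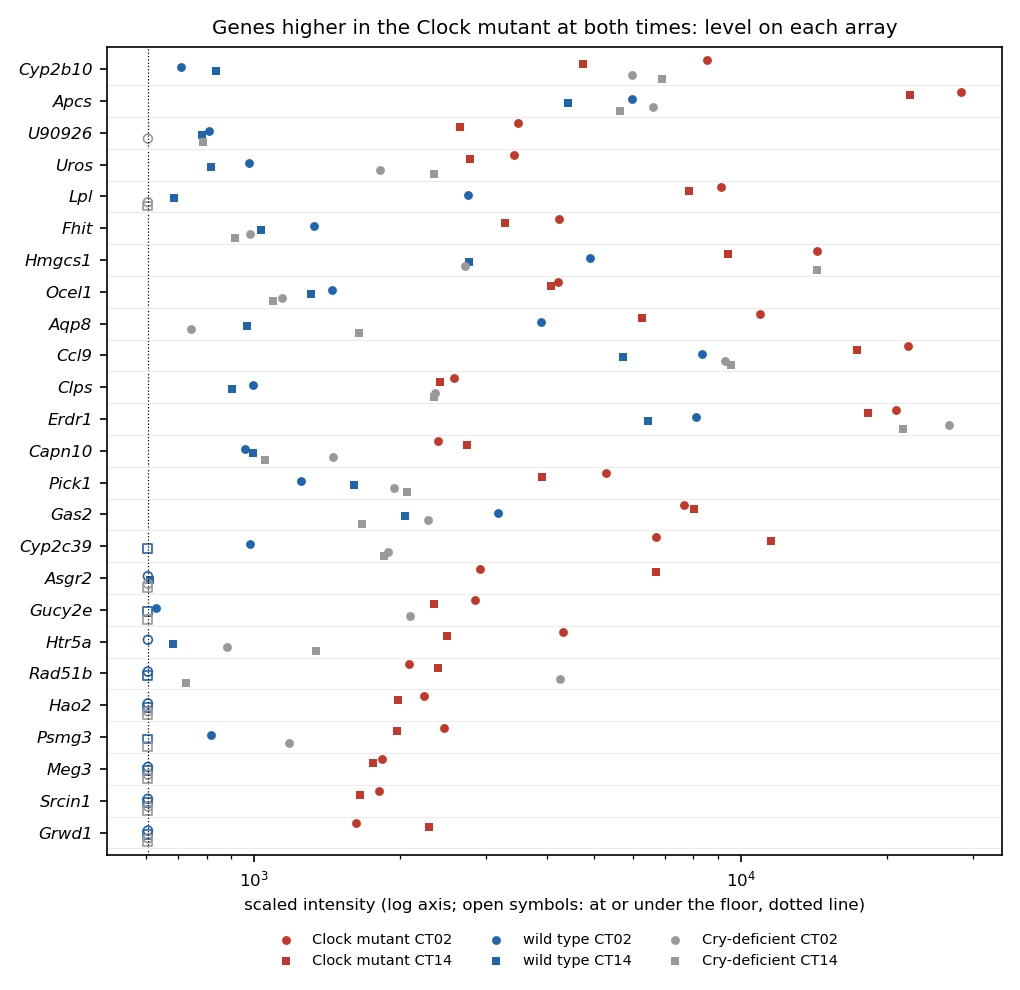
Scaled intensity (log axis) on each of 6 arrays for the 25 ranked genes higher in the Clock mutant at both times, with open symbols for values at or under the floor of 606. Both Clock mutant arrays (red) lie to the right of both wild-type arrays (blue) for every gene shown. Cyp2b10, Clps and Erdr1 are also high on both Cry-deficient arrays (grey). Some other genes, such as Uros, Cyp2c39 and, at CT14, Hmgcs1, lie above wild type there too.

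On the lower side Dio1 had the largest difference of all 146 genes. Dio1 encodes the type 1 deiodinase, the liver selenoenzyme that converts thyroxine to active thyroid hormone. It read 400 and 144 scaled units in Clock mutant liver at CT02 and CT14, both under the floor, against 10522 and 13126 in wild type, and the Cry-deficient arrays read 11689 and 11749. It was at least 17.4-fold and at least 21.7-fold lower. The limma fit gave an adjusted p of 0.00119 with both mutant values set to the floor, so its mean ratio and SE depend on the floor and are not given. That adjusted p was 0.00806 with all 6 arrays and 0.0382 with no block for time, but 0.0789 after quantile normalization and 0.241 after lowess correction. Dio1 has 1 probe set on the array, so no second reading of it exists.

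Nnmt, the methyltransferase that clears nicotinamide, read -2474 and -393 in the Clock mutant, against 3362 and 5267 in wild type, at least 5.55-fold and at least 8.69-fold lower, with 4982 and 142 on the Cry-deficient arrays. Kap, an androgen-regulated gene known from mouse kidney, read 117 and -100 against 2635 and 4506, at least 4.35-fold and at least 7.43-fold lower. On the Cry-deficient arrays Kap read 294 and 2719, so a value under the floor was not limited to the Clock mutant. Xdh, the xanthine oxidoreductase that makes uric acid, read 1118 and 1468 in the Clock mutant, against 5001 and 5078 in wild type, 4.47-fold and 3.46-fold lower. Of the 18 purine and redox genes kept, Xdh was the 1 at least 2-fold lower and Fhit the 1 at least 2-fold higher at both times. The shares of all genes were 1.86% and 1.16%.

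Glns-ps1, a pseudogene of glutamine synthetase, read 834 and 1281 in the Clock mutant, against 6825 and 6874 in wild type, 8.18-fold and 5.37-fold lower, and the Cry-deficient arrays at 7118 and 6702 lay at the wild-type level. Its parent gene Glul, the glutamine synthetase of the hepatocytes around the central vein, read 4638 and 9100 against 15048 and 15059, a log2 ratio of -1.70 and -0.73, but a second Glul probe set, above the floor on all 4 arrays, went the other way with 7891 and 6229 against 5460 and 5071. The probe sets of the pseudogene and the parent may share signal. The 5 pericentral markers kept, Glul among them, had a median of -0.20 and -0.70. Their summed level was 39785 and 40751 in the Clock mutant, against 51880 and 52150 in wild type. At CT02 most of this gap came from the brighter Glul probe set, which the second one went against. In whole liver fewer cells of a type and less RNA per cell cannot be told apart.

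Dynll2, a dynein light chain, read 2386 and 2042 in the Clock mutant, against 15163 and 13651 in wild type, 6.35-fold and 6.69-fold lower (mean log2 ratio -2.70 ± 0.27, SE, adjusted p = 0.0111), but its second probe set, at 3468 and 3336 against 5754 and 5932, gave log2 ratios of -0.73 and -0.83. It was the only 1 of 13 dynein and microtubule genes past 2-fold at both times, beside 3.01% of all genes. Stim1, the calcium sensor of the endoplasmic reticulum, read 1063 and 1452 against 5931 and 4606, and S100a13, a small calcium-binding protein, read 2738 and 2600 against 11086 and 13766. These were 2 of the 8 kept genes of calcium signalling and S100 proteins, beside 1.86% of all genes lower at both times. That list was drawn up with leading genes of this comparison known, so its count carries no weight of its own. The other probe sets of S100a13 did not agree in size, with log2 ratios of -0.16 and -0.49 on one and at least 2.57 and 2.77 below wild type on the other.

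Srp9, a subunit of the particle that targets nascent secretory proteins, read 1265 and 2839 in the Clock mutant, against 6850 and 8507 in wild type, 5.41-fold and 3.0-fold lower. Pdia3, a disulfide isomerase of glycoprotein folding, read 4584 and 5357 against 11795 and 15002, and it was the only 1 of 18 genes of the unfolded protein response list at least 2-fold lower at both times, with 0 at least 2-fold higher, beside 1.86% and 1.16% of all genes. By any margin 4 of the 18 were lower and 2 higher at both times. Atf6, a sensor of that response that is not in the list and was picked after its values were seen, read 442 and 661 against 1218 and 1537. The list's median was 0.31 at CT02, which was -0.22 on the values as deposited, and -0.74 at CT14. Pigt, part of the transamidase that attaches GPI anchors, read 1294 and 599 against 4654 and 4876, 3.60-fold and at least 8.04-fold lower. Pex6, an ATPase that recycles the peroxisomal import receptor, read 869 and 953 against 3699 and 3649, 4.26-fold and 3.83-fold lower. It was the only 1 of 8 peroxisome biogenesis genes past 2-fold at both times, beside 3.01% of all genes. Of the 8, 5 were lower at both times by any margin. Tspan4, a tetraspanin of the cell surface, read 794 and 1248 against 3565 and 8979. It was the only 1 of 7 tetraspanins past 2-fold at both times, beside 3.01% of all genes.

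Nuclear and signalling genes followed. H1f2, a linker histone, read 3090 and 3037 in the Clock mutant, against 10638 and 11660 in wild type, 3.44-fold and 3.84-fold lower, and was also low on the Cry-deficient arrays at 4769 and 2378. Lig3, a DNA ligase of single-strand break repair and mitochondria, read 853 and 1037 against 3080 and 4409, while its second probe set had a log2 ratio of 0.19 at CT02 and -1.23 at CT14. Ercc2, a helicase of nucleotide excision repair, read 1397 and 1391 against 3196 and 2958, but its second probe set, above the floor on all 4 arrays, gave log2 ratios of -0.08 and -0.30. Xrcc1, the partner protein of Lig3, stood on the other side, with 1653 and 1296 against 520 and 343. Its second probe set showed little of this, with a log2 ratio of 0.24 at CT02 and both genotypes under the floor at CT14. The 13 DNA repair genes kept thus held 2 at least 2-fold lower and 1 at least 2-fold higher at both times. The shares of all genes were 1.86% and 1.16%. Ddx6, an RNA helicase of mRNA decay, read 748 and 1424 against 4091 and 3973, and its other probe sets gave log2 ratios of -1.44 and -1.29 on one and 0.61 and -0.09 on the other. Arpc4, a subunit of the actin-nucleating Arp2/3 complex, read -171 and 683 against 2476 and 2519, and Cit, a kinase of cytokinesis, read -116 and 289 against 2700 and 2618. Mst1r, the receptor for macrophage-stimulating protein, read 561 and 121 against 1864 and 1996. Gatd3a read 344 and 2088 against 6340 and 6189, at least 10.5-fold and 2.96-fold lower.

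**Figure D3:**
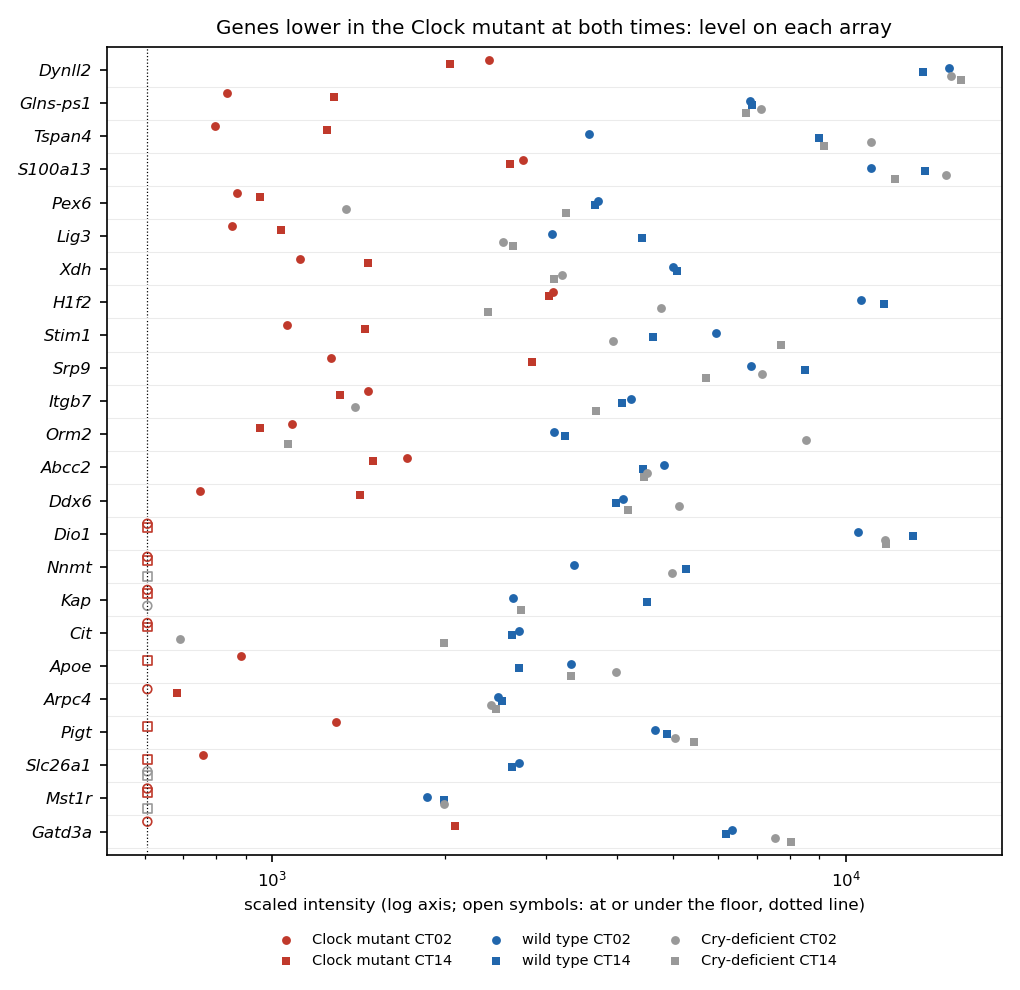
Scaled intensity (log axis) on each of 6 arrays for 24 ranked genes lower in the Clock mutant at both times, with open symbols for values at or under the floor of 606. Dio1 is under the floor on both Clock mutant arrays (red) and between 10522 and 13126 on the 4 others, while on the Cry-deficient arrays (grey) Slc26a1 is under the floor at both times, Kap at CT02 alone, and Nnmt and Mst1r at CT14 alone.

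Itgb7, an integrin chain of lymphocytes, read 1470 and 1312 in the Clock mutant, against 4225 and 4070 in wild type, 2.87-fold and 3.10-fold lower. Cd74, the invariant chain of MHC class II antigen presentation, read 3528 and 3532 against 8738 and 9569, and Laptm5, a lysosomal protein of blood cells, read 1302 and 1079 against 3385 and 2754, though a second Laptm5 probe set gave log2 ratios of 0.25 and -0.19. Irf9, which carries interferon signals to the nucleus, read 973 and 526 against 2398 and 2087. Of the 4 B cell markers kept, Cd74 was the only 1 past 2-fold at both times. Ighm went the other way at CT14, with 3819 in the Clock mutant against 1564 in wild type, and read 2159 against 2472 at CT02. The summed level of the 4 was 14111 and 14577 in the Clock mutant against 17908 and 18252 in wild type. Their median log2 ratio was 0.02 and 0.14. The 12 macrophage markers held 0 past 2-fold at both times, with a summed level of 32937 and 33548 in the Clock mutant against 41963 and 40488 in wild type and medians of -0.23 and -0.29. Adgre1, Cd68, Csf1r, Lyz2 and Mpeg1 each had a second probe set under the floor on all 4 arrays, and the brighter one of Adgre1 was above it in wild type at CT14 alone. The part of these cells in the lower genes named here was not tested. Laptm5 and Irf9 were picked after their values were seen.

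Genes further down the list, picked after their values were seen and standing for no group, are given as single values. Man2a1, a Golgi mannosidase of N-glycan processing, read 3266 and 4701 in the Clock mutant against 10490 and 9609 in wild type. Slc9a3r1, a scaffold of apical membrane transporters, read 4676 and 5741 against 13198 and 15562. Arf5, a small GTPase of the Golgi, read 3556 and 3503 against 8324 and 7076. Gm2a, the activator of ganglioside breakdown in lysosomes, read 1498 and 2170 against 6410 and 4711, and Atp6v1h, a subunit of the proton pump of lysosomes, read 2685 and 2769 against 5495 and 5635. Guk1, the guanylate kinase, read 1217 and 1885 against 4044 and 4836, and Cited2, a transcriptional coregulator, read 2664 and 1828 against 6948 and 3856. On the higher side Capn2, a calpain, read 3847 and 2783 against 1845 and 1389, Nfatc2, a calcium-dependent transcription factor, read 4201 and 3225 against 1550 and 1561, and Prxl2a read 3745 and 3066 against 1609 and 1527. The second probe set of Prxl2a was higher too, at 3106 and 2088 against 1346 and 165.

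Over all 56 higher genes the median fold was 2.82 at CT02 and 2.72 at CT14, with bounds counted at their value, and the ranges were 2.01 to 12.03 and 2.003 to 19.1. Over the 90 lower genes the medians were 2.735 and 2.71, with ranges of 2.005 to 17.4 and 2.003 to 21.7. Of the higher genes 32 differed more at CT02 and 24 at CT14, and of the lower genes 47 and 43, so neither time had the larger differences throughout. The share of genes within 1.5-fold between the 2 times was close to that of all genes. In the Clock mutant it was 80.4% of the higher and 78.9% of the lower genes (77.4% of all genes), and in wild type 89.3% and 86.7% (85.4% of all genes). These shares include the 18 higher genes under the floor on both wild-type arrays and the 23 lower genes under it on both mutant arrays, which count as equal by construction.

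Other probe sets of the same genes were read as well, counting each one above the floor on at least 1 of the 4 arrays, whichever genotype that was. Of the higher genes 21 had another probe set, and 11 probe sets of 11 genes met this. Of these 11, 3 were higher at both times (2 of them at least 2-fold, those of Lpl and Prxl2a), 2 were lower at both times (those of Erdr1 and Fgf11) and 6 were mixed or equal at the floor at 1 time. The other probe set of Edn1, the endothelin gene, was among the mixed ones, with log2 ratios of -1.05 at CT02 and 0.88 at CT14. Of the lower genes 24 had another probe set, and 19 probe sets of 15 genes met this. Of these 19, 8 were lower at both times (2 of them at least 2-fold, 1 of S100a13 and 1 of Ddx6), 1 was higher at both times (that of Igdcc3) and 10 were mixed or equal. Most other probe sets therefore did not show the 2-fold difference of the probe set used, and genes read by a single probe set have no such check.

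The 146 genes were spread over the genome. By the RefSeq annotation (GRCm38.p6), chromosome 7 held 18 of them and chromosome 11 held 19, which is 4.81% and 4.35% of the genes read there, beside 3.01% of all genes. Chromosome 5, which carries Clock itself, held 10, or 3.46%. Among the genes read, 6 pairs of direct neighbours were both past 2-fold, of which Cyp2b10 with Cyp2b9, Tspan4 with Ap2a2, Ass1 with Abl1 and Slc26a1 with Chfr went the same way, and Mst1r with Uba7 and Ogfr with Col9a3 went opposite ways. The share of probe sets whose names carry no letter marking a family or cross-hybridisation was 87.0% in these genes, against 86.1% of all genes.

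CLOCK and BMAL1 bind the E-box CACGTG, so the promoters of the 146 genes were searched for it, from 250 bases before to 50 after each annotated gene start (RefSeq, GRCm38.p6). A window was given for 47 of the higher and 71 of the lower genes. The E-box, which reads the same on both strands, was present for 6 higher genes (12.8%) and 11 lower genes (15.5%), against 12.2% of the 3922 genes with a window. The variant CACGTT, searched on both strands, was present for 1 higher gene (2.13%) and 1 lower gene (1.41%), against 5.86%. The share with an E-box was therefore close to that of all genes, and a match describes letters in a window, not binding. The windows of the first 2 higher and the first 2 lower genes that hold an E-box, in the ranking of genes above the floor on all 4 arrays, are shown 5′ to 3′ on the strand of the gene, with the E-box in capitals, to place it relative to the start. It begins at position -250 in Uros (chr7:133709246-133709545, minus strand), -75 in Aqp8 (chr7:123462044-123462343, plus strand), -51 in Tspan4 (chr7:141476130-141476429, plus strand) and -21 in Lig3 (chr11:82780859-82781158, plus strand), counted from the annotated start.
Uros: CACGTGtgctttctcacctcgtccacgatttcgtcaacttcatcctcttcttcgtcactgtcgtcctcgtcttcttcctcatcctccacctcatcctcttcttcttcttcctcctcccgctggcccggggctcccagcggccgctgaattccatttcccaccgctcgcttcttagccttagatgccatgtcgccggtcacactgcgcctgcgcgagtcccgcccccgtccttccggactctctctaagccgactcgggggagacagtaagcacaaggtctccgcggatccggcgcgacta
Aqp8: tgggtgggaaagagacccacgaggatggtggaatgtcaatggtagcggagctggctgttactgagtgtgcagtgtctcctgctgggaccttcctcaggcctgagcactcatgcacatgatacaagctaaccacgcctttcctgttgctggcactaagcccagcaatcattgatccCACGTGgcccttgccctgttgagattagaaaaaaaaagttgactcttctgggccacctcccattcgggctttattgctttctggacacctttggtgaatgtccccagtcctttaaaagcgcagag
Tspan4: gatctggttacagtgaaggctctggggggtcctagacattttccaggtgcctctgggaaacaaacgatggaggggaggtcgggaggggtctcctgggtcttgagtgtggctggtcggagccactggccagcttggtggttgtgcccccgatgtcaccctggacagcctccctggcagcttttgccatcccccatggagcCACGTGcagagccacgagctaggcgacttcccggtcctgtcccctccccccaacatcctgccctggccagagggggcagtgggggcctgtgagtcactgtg
Lig3: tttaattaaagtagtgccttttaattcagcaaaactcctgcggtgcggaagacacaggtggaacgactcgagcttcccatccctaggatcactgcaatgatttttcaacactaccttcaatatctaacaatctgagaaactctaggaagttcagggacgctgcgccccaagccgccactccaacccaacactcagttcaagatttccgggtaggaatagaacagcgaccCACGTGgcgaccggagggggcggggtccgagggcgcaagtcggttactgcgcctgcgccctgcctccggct

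The pathway lists placed 31 of the 146 genes. Of 369 kept genes in any of the 29 lists, 16 (4.34%) were at least 2-fold higher and 15 (4.07%) at least 2-fold lower at both times, beside 1.16% and 1.86% of all genes, but the lists were drawn up with leading genes of this comparison known. The heat shock list had a median log2 ratio of 0.42 at CT02, which was -0.13 on the values as deposited, and of -0.55 at CT14, and 0 of 16 genes past 2-fold at both times. Single members such as Hsph1, a chaperone cofactor, read 9861 and 6000 in the Clock mutant against 5491 and 14330 in wild type. Other cytochromes P450 had medians of -0.25 and -0.27 over 19 genes with 0 past 2-fold at both times.

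**Figure D4:**
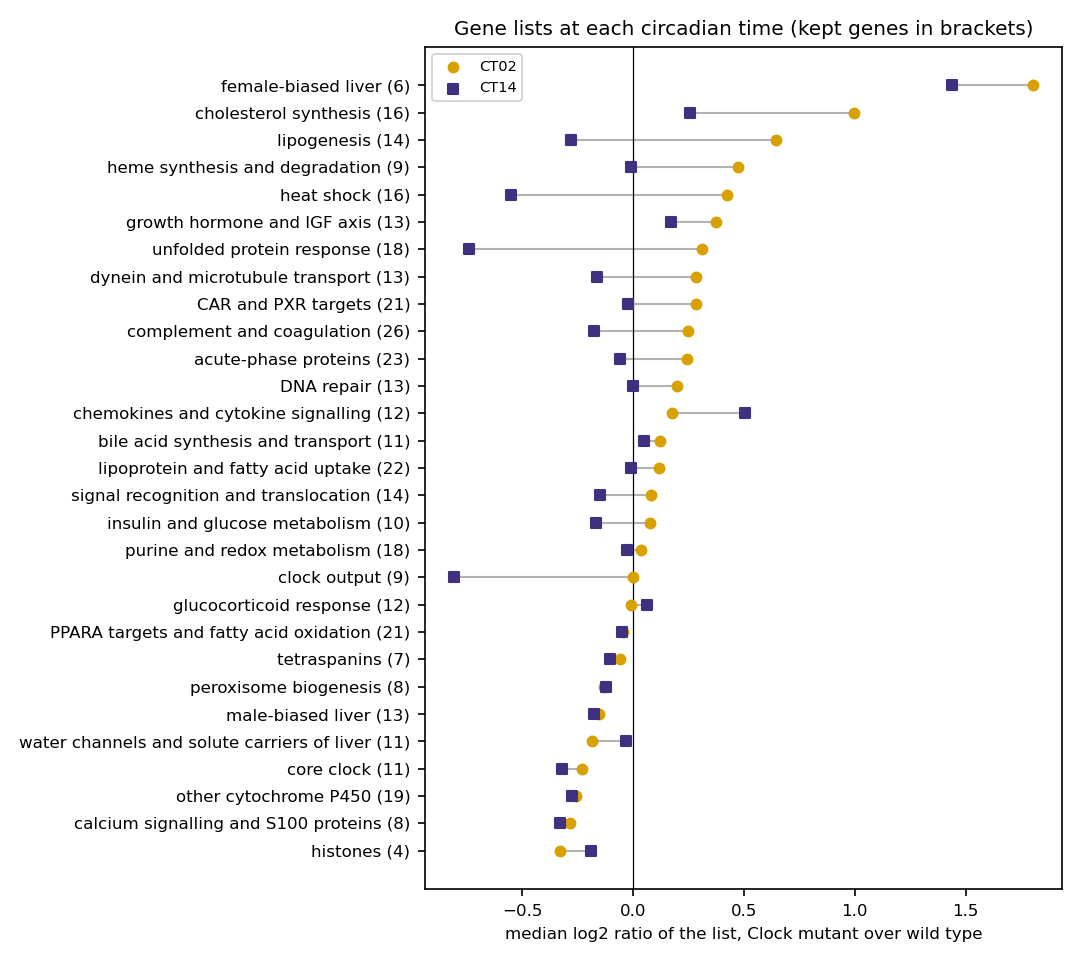
Median log2 ratio of Clock mutant over wild type for 29 gene lists at CT02 (circles) and CT14 (squares), with the number of genes kept in brackets. The lipogenesis list lies at 0.65 and -0.28, and its lowest CT02 median among the scalings tried was 0.09. The heat shock and unfolded protein response lists lie above 0 at CT02 and below it at CT14, although their CT02 medians were -0.13 and -0.22 on the values as deposited.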

How the data were processed

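The deposited values are 1 intensity per probe set and array, whole numbers of both signs, as the file shows. No source used here states how the authors subtracted background or scaled the deposited intensities, or their software. Of 12488 probe sets, 10833 had 1 gene symbol and were no control, 396 had several symbols and were not used, and 1259 had none or were controls. By gene number 10817 matched RefSeq (GRCm38.p6), with 0 symbols updated.

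Each array was scaled by its median ratio to the geometric mean of all 6, taken over 6065 bright probe sets. The log2 offsets were -0.43 (CT02) and 0.07 (CT14) for the Clock mutant and 0.12 and 0.15 for wild type. A gene was its brightest probe set (8251 genes). Of these, 4844 averaged 606 scaled units (the floor) or more and were kept. The number of arrays, not of probes, limits the precision. The fit used limma 3.58.1 in R 4.3.3 with 1 residual and an estimated 7.16 prior degrees of freedom, on floored log2 values. It was tested on simulated arrays.

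Named genes were the top 15 each way, ranked on the lesser of the CT02 and CT14 log2 ratios, above the floor on all 4 arrays, the top 10 with a bound, the 5 largest in each pair of opposite directions, the core clock genes and up to 4 members of a list. One ranked probe set annotated to a microRNA gene is not described. Members and lists were chosen with earlier results of these data known. Alternatives covered scaling, floor, filter, probe choice, threshold and the fit's samples, moderation and block, and 2 settings, genes above the floor on all 4 arrays and a variance trend, were added after seeing the data.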

Additional observations from a re-analysis of the deposited data

Results flagged for a closer look

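The 10 ranked genes that were at least 2-fold apart in opposite ways at CT02 and CT14 are given here, because their genotype difference changed sign between the times. The difference between the times was not tested, since each rests on 1 array per group. Higher at CT02 and lower at CT14 in the Clock mutant were Cyp3a16, a cytochrome P450, with a change of the log2 ratio between the times (CT14 minus CT02) of -4.55, Elovl6, a fatty acid elongase, with -3.91, Fasn, the fatty acid synthase, with -3.59, Abcc5, an export pump, with -3.39, and Mvd, an enzyme of cholesterol synthesis, with -2.94. Fasn read 16935 and 4924 in Clock mutant liver at CT02 and CT14, against 5148 and 17963 in wild type. The second Elovl6 probe set moved the same way, at 1591 and 400 against 699 and 4070. Lower at CT02 and higher at CT14 were Wsb1 with a change of 3.86, Fbxo21 with 3.10, Krt33b with 2.72, Igfbp1, an insulin-like growth factor binding protein, with 2.60, and Entpd6 with 2.59. The changes of Cyp3a16, Abcc5, Mvd, Wsb1, Krt33b, Igfbp1 and Entpd6 involve values at the floor and are lower bounds in size. The second probe sets of Entpd6 and Krt33b did not change sign. That of Entpd6 read 1713 and 848 in the Clock mutant against 259 and 565 in wild type. That of Krt33b read 689 and 809 against 547 and 233. Both were above the floor in the Clock mutant and under it in wild type at both times. The second Igfbp1 probe set was under the floor on all 4 arrays and gives no check.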

How the results depend on the processing

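The count of genes past 2-fold the same way at both times (146) lay between 119 and 148 with quantile normalization, lowess correction, scaling from the 4 arrays alone, no filter, averaged probe sets or only probe sets with no letter in the name, and 115 to 146 of the same genes were called in each. On the values as deposited it was 190 (25 higher, 165 lower, 1032 at CT02). A floor at the 60th percentile gave 78 (27 higher, 51 lower), with 7 opposite, 324 at CT02 and 291 at CT14, and one at the 25th gave 212, with 40 opposite. A filter at the 75th percentile gave 55 (15 higher, 40 lower), 8 opposite, 200 at CT02 and 181 at CT14. A threshold of 1.5-fold gave 459 (196 higher, 263 lower), 102 opposite, 1492 at CT02 and 1239 at CT14, and one of 3-fold gave 31 (13 higher, 18 lower), 3 opposite, 151 at CT02 and 118 at CT14. Only genes above the floor on all 4 arrays gave 71 (30 higher, 41 lower), 9 opposite, 349 at CT02 and 284 at CT14.

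The limma count of 76 was 0 on the values as deposited, with quantile normalization, with lowess correction, with a floor at the 60th percentile and with no filter, where between 584 and 727 genes had an unadjusted p under 0.05. It was 1 with no block for time, 2 with all 6 arrays, 6 with a floor at the 25th percentile, 120 with a filter at the 75th percentile, 208 over genes above the floor on all 4 arrays, 237 with scaling from the 4 arrays and 267 with averaged probe sets. The estimated prior degrees of freedom lay between 0.35 and 0.72 in the settings with no filter and with the higher floor, and at 29.5 with averaged probe sets.

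Of 1120 values of named genes under other settings 88 moved by over 1.5-fold and 2 reversed: Entpd6 at CT02 had a log2 ratio of 0.19 with averaged probe sets and 1.498 on its probe set with no letter. Of 892 list medians 17 moved by over 1.5-fold. In both counts 0 moves came from the values as deposited, because leaving out the scaling shifts CT02 ratios by less than 1.5-fold. The counts therefore do not report on the sign of a median. Over the scalings tried, the CT02 median ran from -0.43 to 0.12 for bile acid genes and from -0.29 to 0.24 for acute-phase genes. It ran from -0.08 to 0.47 for heme genes, while that of cholesterol synthesis stayed above 0, from 0.44 to 1.11. The arrays were paired by circadian time, which was the block of the fit, and the labels give no replicate number for any other pairing. Dim genes are limited by the floor: on the 4 arrays 5.10% to 8.05% of kept genes lay there.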
